A study of Bos taurus with 2 samples.

Results

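The nuclei described here are hypoblast nuclei of the bovine day 8 blastocyst in which UMIs of KIT, VWF and A2M together outnumbered those of GATA4, NID1 and COL18A1. They were chosen by these UMI counts, so the levels of the 12 genes named in the rule describe the choice and are not findings. A UMI (unique molecular identifier) stands for 1 captured RNA molecule. A barcode of the blastocyst library was kept with at least 4000 UMIs, at least 500 genes and under 10% of UMIs from the 13 mitochondrial mRNAs, which left 693 of 944 barcodes. A kept nucleus was called hypoblast when HNF4A and PDGFRA together had at least 2 UMIs and when GATA2 with GATA3, and NANOG with PRDM14, had at most 1 each. This gate held 294 nuclei, 42.4% of the kept nuclei (exact 95% interval 38.7% to 46.2%). Of these, 166 had more KIT, VWF and A2M UMIs (the KIT side), 107 had more GATA4, NID1 and COL18A1 UMIs (the GATA4 side), and 21 were tied. The KIT side was therefore 56.5% of the hypoblast nuclei (50.6% to 62.2%) and 24.0% of all kept nuclei (20.8% to 27.3%), out of 2901 barcodes in both libraries. The other 420 kept nuclei included the 21 tied ones. Among them, 216 had at least 2 UMIs of GATA2 and GATA3 and fewer than 2 of HNF4A and PDGFRA, and are called trophectoderm-gated. Another 38 had at least 2 UMIs of each pair. NANOG and PRDM14 were not used for these classes. A further 94 had at least 2 UMIs of NANOG and PRDM14 and fewer than 2 of GATA2 and GATA3, and are called epiblast-gated. The last 51 passed no gate.

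The study compared blastoids, embryo-like structures aggregated from stem cell lines of 3 kinds and named 3L blastoids, with blastocysts by single-nucleus RNA sequencing. The blastocysts were wild-type day 8 bovine embryos, frozen before nuclei were isolated, and the labels name no treatment and give neither the number of embryos nor how they were produced. There was 1 library of each kind, so no difference between conditions or between embryos could be tested. Nuclei of 1 library are not replicates, so no p-value is given anywhere: levels are in CPM, a gene's UMIs relative to the summed UMIs of its class, and intervals are exact 95% intervals that cover counting error only.

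The hypoblast, also called primitive endoderm, is the layer of the inner cell mass that comes to line the blastocoel cavity and gives rise to the yolk sac endoderm. It lays down basement membrane on which the epiblast rests, and it responds to FGF and to PDGF signals through receptors that include PDGFRA. HNF4A is a nuclear receptor of endoderm and GATA4 a zinc finger factor that is switched on after GATA6 as hypoblast matures. KIT is the receptor tyrosine kinase for stem cell factor, VWF a large adhesive protein best known from endothelium and platelets, and A2M a secreted inhibitor of many proteases. NID1 (nidogen) links laminin to collagen IV, and COL18A1 is a collagen of basement membranes.

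The blastocyst library held 7029253 UMIs, with a median of 8606 per kept nucleus. The KIT side held 1462226 of them, with 4024 UMIs in the shallowest nucleus, a median of 8133 and 27830 in the deepest. Nuclei of the GATA4 side ranged from 4275 to 17782 UMIs around a median of 8312, so the sides were close in depth. Once each nucleus was thinned to 4000 UMIs, the median number of genes was 2326.5 on the KIT side and 2300.0 on the GATA4 side. Mitochondrial mRNAs gave a median of 0.432% and 0.478% of UMIs, and ribosomal protein mRNAs 0.757% and 0.815%. Of the barcode sequences, 1 occurred in both libraries, and it was not among the 166 nuclei. Doublets were not removed; scored by Scrublet, the 6 barcodes ranked most doublet-like included none of the 166.

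The hypoblast label comes from the rule, and the usual markers outside the rule fitted it only in part. The class had 555 CPM of HNF4A and 356 CPM of PDGFRA. The rule asked at least 2 UMIs of these together, so they cannot support the label. GATA6, the early endoderm factor, which the rule did not use, was at 949 CPM, against 780 CPM over all kept nuclei of the library. FOXA2, a factor of later endoderm, had 0 UMIs, where 3 UMIs would be 2.05 CPM, and SOX17 had 8 UMIs. SOX7 had 1 UMI and CUBN, the endocytic receptor cubilin, had 5. LRP2 and DAB2, endocytic genes often listed for endoderm, were far lower than in trophectoderm-gated nuclei: LRP2 was at 108 CPM against 3089 CPM and DAB2 at 33.5 CPM against 837 CPM. With these genes in the list, the 12 hypoblast markers summed to 1854 CPM on the KIT side, 2188 CPM on the GATA4 side and 4855 CPM in the trophectoderm-gated nuclei, so the list as a whole does not separate the lineages here.

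The 3 genes named in the class contributed unequally. KIT supplied 76.9% of the KIT, VWF and A2M UMIs of these nuclei, A2M 16.1% and VWF 6.97%. A KIT UMI was present in 163 of the 166 nuclei, an A2M UMI in 89 and a VWF UMI in 63. All 3 were present together in 36 nuclei, while 51 nuclei had neither VWF nor A2M. KIT alone exceeded the 3 opposing genes in 138 nuclei. On the other side NID1 supplied 74.3% of the 3 genes' UMIs, COL18A1 21.8% and GATA4 3.90%. The division was thus in the main one of KIT against NID1, and the class is called the KIT side for that reason.

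**Figure D1:**
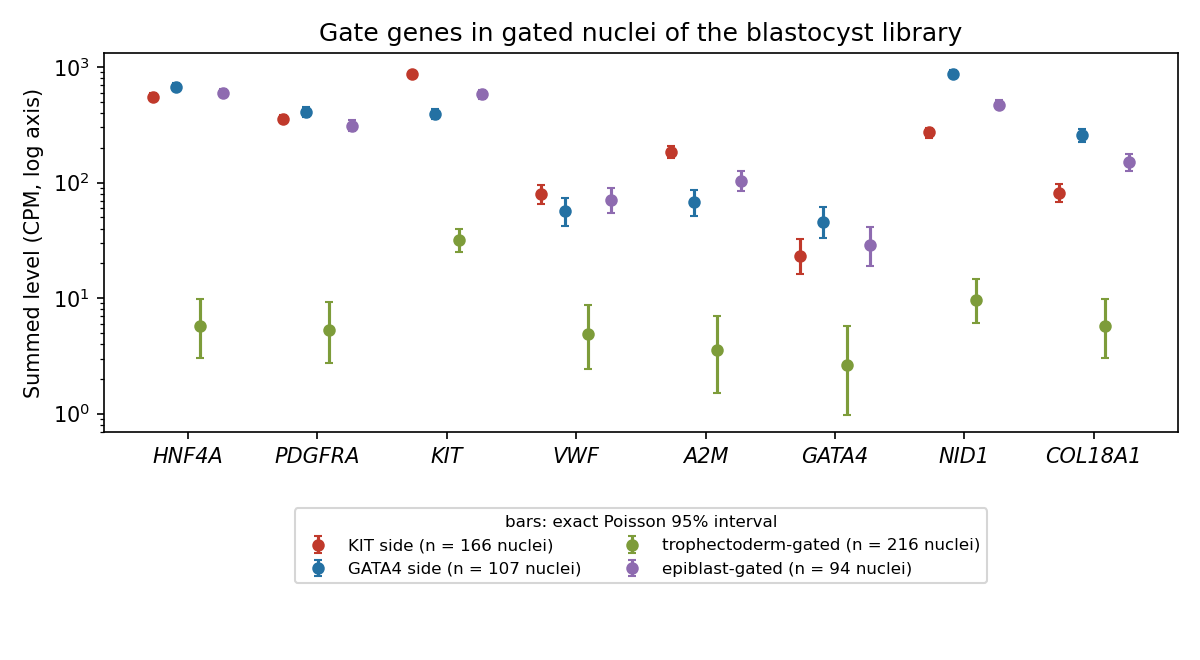
Levels of the genes used to choose the nuclei, in CPM on a log axis, by class of blastocyst nuclei, with exact 95% intervals for counting error; KIT stood at 875 CPM on the KIT side and at 392.3 CPM on the GATA4 side. The choice of nuclei fixed these differences, which are a description.

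In KIT side nuclei the KIT count ranged from 0 to 24 UMIs with a median of 7, and in GATA4 side nuclei from 0 to 15 with a median of 2. The nuclei of the 2 sides overlapped in KIT count, as they did for each of the other side genes. Summed, KIT was at 875 CPM on the KIT side and 392.3 CPM on the GATA4 side, A2M at 183 CPM and 67.3 CPM, and VWF at 79.3 CPM and 56.7 CPM. NID1 ranged from 0 to 14 UMIs with a median of 1 on the KIT side and from 0 to 32 with a median of 6 on the GATA4 side, or 271.5 CPM and 877 CPM. COL18A1 was at 81.4 CPM and 257 CPM, and GATA4 at 23.3 CPM and 46.0 CPM. Hypoblast nuclei of both sides thus carried both sets of genes, and 33 of the 166 had no UMI of GATA4, NID1 or COL18A1.

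Free RNA gives UMIs in nuclei that do not express a gene, so detection was set beside that in trophectoderm. After thinning to 4000 UMIs, KIT was detected in 91.6% of KIT side nuclei (86.3% to 95.3%), 61.7% of GATA4 side nuclei (51.8% to 70.9%) and 9.72% of trophectoderm-gated nuclei (6.12% to 14.5%). The unthinned KIT shares were 98.2%, 79.4% and 13.4%, at median depths of 8133, 8312 and 9026 UMIs. A2M was detected in 38.0% of thinned KIT side nuclei, 20.6% of GATA4 side nuclei and 1.39% of trophectoderm-gated nuclei. For VWF the thinned shares were 21.7% (15.7% to 28.7%), 16.8% (10.3% to 25.3%) and 1.39%, with overlapping intervals between the 2 sides. The rule chose the sides by these genes, so the contrast between the sides in their detection describes the choice.

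The edge between the sides was densely populated. Among the 166 nuclei, 18 exceeded the opposing count by 1 UMI and 34 by 1 or 2 UMIs, and with the ties and the GATA4 side 89 of the 294 hypoblast nuclei lay within 2 UMIs of the divide. The other limits had members close by as well. HNF4A with PDGFRA was at exactly 2 in 15 members, and 14 nuclei missed the class only because it was 1. GATA2 with GATA3 was 1 in 25 members and 0 in 141, and 11 nuclei missed the class only because it was 2. NANOG with PRDM14 was 1 in 39 members and 0 in 127, and 23 nuclei missed the class only because it was 2. The shallowest member had 4024 UMIs, and the deepest barcode excluded by depth alone had 3994.

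The share of KIT, VWF and A2M among the UMIs of all 6 genes was spread over its whole range. Over the nuclei with at least 5 such UMIs, bins of 10% width from the GATA4 end to the KIT end held 8, 14, 25, 17, 34, 36, 30, 26, 25 and 35 nuclei. The fullest bins were the one just past the middle and the one at the KIT end. These are the genes of the rule, and counting noise widens such shares, so the bins do not tell a graded population from separate ones. The KIT side is read here as a range of a score.

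**Figure D2:**
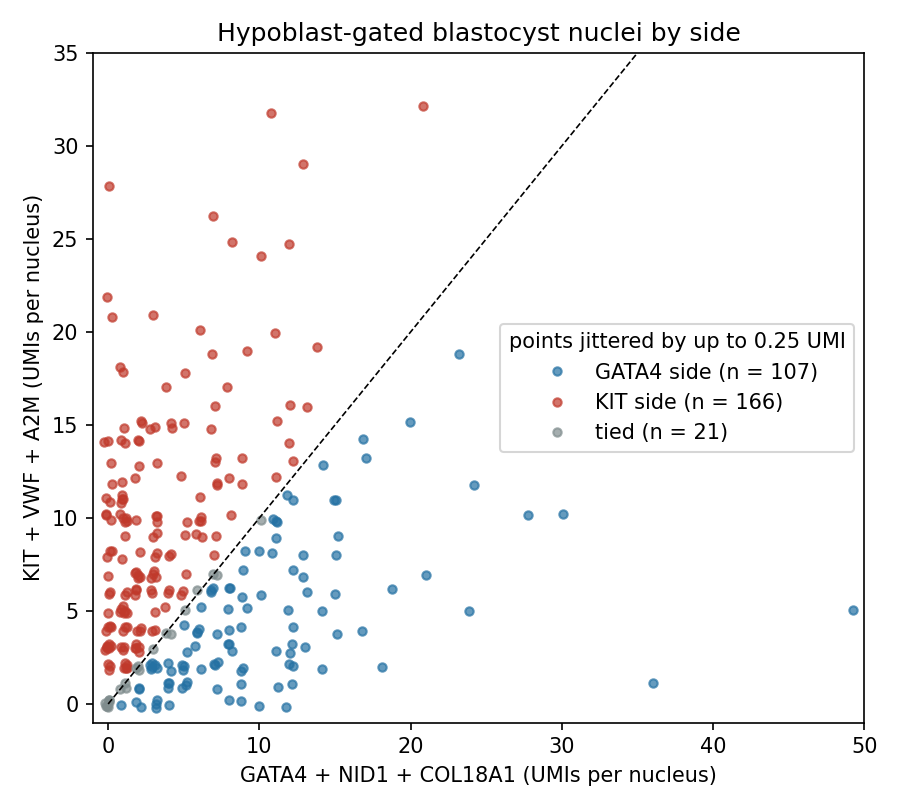
Each point is 1 of the 294 hypoblast nuclei, placed by its GATA4, NID1 and COL18A1 UMIs and its KIT, VWF and A2M UMIs, coloured by side. The points spread across the diagonal without a gap, and 89 nuclei lie within 2 UMIs of it.

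To read a side gene without letting it choose the nuclei, the sides were also called from the remaining 5 genes. Called without KIT, 55 nuclei fell on the KIT side and KIT itself was at 759 CPM there against 648 CPM on the opposite side, a log2 ratio of 0.23 (0.06 to 0.40). Called without A2M, A2M was at 162 CPM against 104.5 CPM, a log2 ratio of 0.63 (0.29 to 0.98). Called without VWF, VWF was at 71.1 CPM against 65.0 CPM, a log2 ratio of 0.13 (-0.34 to 0.61), which was not distinguishable from 0. On the opposing side the held-out genes kept their direction: NID1 had a log2 ratio of -0.63 (-0.86 to -0.40), COL18A1 one of -0.75 (-1.06 to -0.44) and GATA4 one of -0.75 (-1.43 to -0.07). Held out in this way, the side genes other than VWF kept their direction with smaller ratios, and the intervals of KIT and GATA4 came close to 0. The classes differed in size between these calls, with 55 and 210 nuclei without KIT and 242 and 31 without NID1. The genes and nuclei are still those of the rule, so these values describe the call and do not support the sides.

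The UMIs of each nucleus were also divided at random, with the side called on one part and the levels read from the other. The part used for calling gave 155 KIT side nuclei, 141 of them among the 166. The other part gave log2 ratios of 1.00 (0.76 to 1.25) for KIT, 0.64 (0.13 to 1.17) for A2M and -0.08 (-0.75 to 0.61) for VWF, and of -1.19 for NID1 and -1.11 for COL18A1. GATA4 was at -0.57 (-1.46 to 0.34), within counting error of 0. Both parts come from the same nuclei and the same 6 genes, so these values describe how repeatable the call was and are not independent of the rule.

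**Figure D3:**
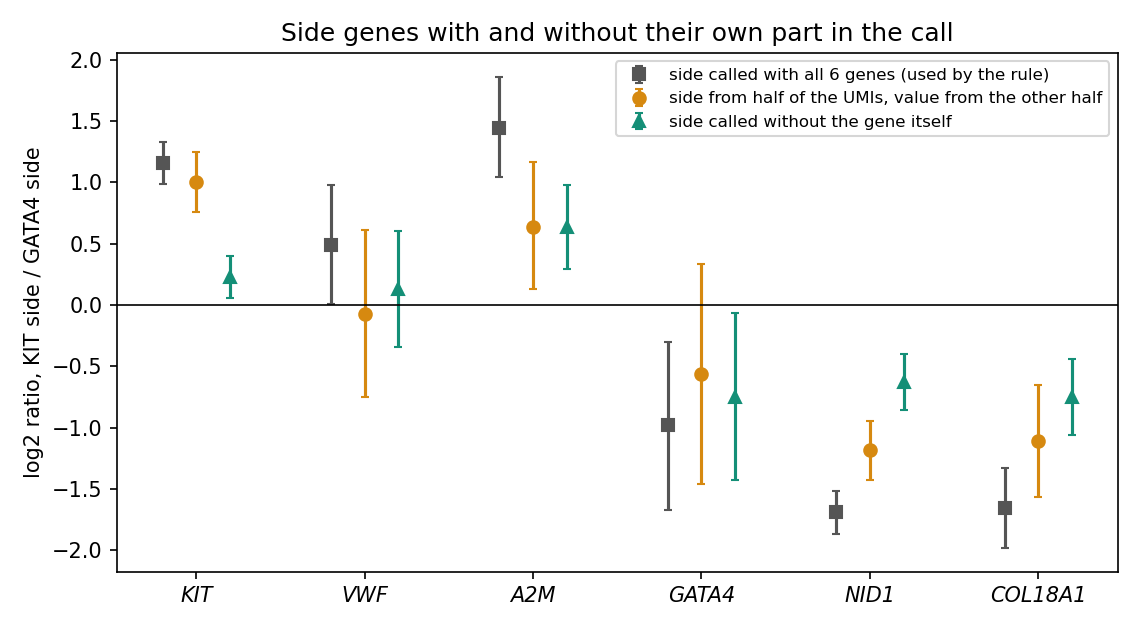
Log2 ratio of CPM, KIT side against GATA4 side, for each of the 6 side genes under the rule, with the gene held out of the call, and with side and level taken from separate UMIs of the same nuclei; lines are exact 95% intervals. With the gene held out, VWF is at 0.13 and NID1 at -0.63; the split of UMIs still uses each gene in the call.

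Across the 294 hypoblast nuclei, thinned to 4000 UMIs, the genes of the KIT side were barely related to one another. Spearman's rho was -0.02 between KIT and VWF, 0.10 between KIT and A2M and 0.05 between VWF and A2M. The closest pair was NID1 and COL18A1, with rho of 0.24, and KIT and NID1 had rho of 0.06. These are correlations across nuclei of 1 library at 1 depth, on sparse counts, given as a description.

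Clustering of the kept nuclei with the 12 genes of the rule left out placed the 2 sides in overlapping but unequal proportions. At resolution 0.5, cluster 1 of 251 nuclei took 72.3% of the KIT side and 36.4% of the GATA4 side, and cluster 4 of 52 nuclei took 4.22% and 30.8%. Cluster 3 held 20.5% of the KIT side and 29.0% of the GATA4 side. Cluster 2, which contained 208 of the 216 trophectoderm-gated nuclei, held none of either side. At resolution 1.0, the smaller cluster 1 held 44.0% of the KIT side and 10.3% of the GATA4 side, and cluster 6 held 4.82% and 30.8%. The median depths of clusters 1 and 4 at the lower resolution were 7896 and 9616 UMIs.

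Against the GATA4 side, 5021 genes had at least 100 UMIs in the 2 sums together. Of these, 33 were at least 2-fold higher on the KIT side (0.657% of the genes compared) and 26 at least 2-fold lower (0.518%), and 195 (3.88%) and 133 (2.65%) passed 1.5-fold. The median log2 ratio over all genes was 0.02, with 90% of them between the 5th percentile of -0.47 and the 95th of 0.54. The counts leave out the genes of the rule, and they depend on depth, so they describe how alike the sides were and not how many genes differ.

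Among endoderm transcription factors, 10 of the 38 listed had enough UMIs. Their median log2 ratio was -0.27, with 9 lower on the KIT side. At least 1.5-fold lower were 2 of them, and 1 was at least 2-fold lower. Over all genes compared these shares were 2.65% and 0.518%. The gene past 2-fold was NR5A2, an orphan nuclear receptor of early embryos and endoderm. It was at 48.6 CPM on the KIT side and 119 CPM on the GATA4 side, a log2 ratio of -1.29 (-1.74 to -0.85). NR5A2 ranged from 0 to 7 UMIs per KIT side nucleus and from 0 to 22 on the GATA4 side, with medians of 0. SALL4, a zinc finger factor of early lineages, was at 91.6 CPM against 131 CPM and TBX3, a T-box factor, at 212 CPM against 270.4 CPM. GATA6 was close on both sides, at 949 CPM and 1035 CPM, as was RUNX1, at 442 CPM and 474 CPM. SOX17, too sparse for the list count, had 8 UMIs against 20, a log2 ratio of -1.97 (-3.36 to -0.72). HNF4A was itself at 555 CPM against 670.2 CPM, but it belongs to the gate.

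RSPO3, a secreted enhancer of WNT signalling, was lower on the KIT side. It ranged from 0 to 8 UMIs per nucleus with a median of 0 on the KIT side, and from 0 to 20 with a median of 1 on the GATA4 side. Its level was 101 CPM against 242 CPM, a log2 ratio of -1.26 (-1.56 to -0.95), and its thinned detection 24.1% (17.8% to 31.3%) against 53.3% (43.4% to 63.0%). RSPO3 was detected in 7.87% of thinned trophectoderm-gated nuclei. The other WNT genes did not share this: of 12 compared, the median was 0.03, and RSPO3 was the single one past 1.5-fold in either direction.

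For FGF signalling 8 genes were compared, with a median of -0.27 and 6 of the 8 lower on the KIT side. FGFR2 was at 65.0 CPM against 122 CPM, a log2 ratio of -0.91 (-1.32 to -0.50), and the ligand gene FGF1 at 45.1 CPM against 68.4 CPM. These 2 were the FGF genes past 1.5-fold. FGFR4 was at 102 CPM against 127 CPM, and SPRY2, a feedback inhibitor of receptor tyrosine kinases, at 129 CPM against 149.6 CPM, both within counting error of equal.

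Genes that act downstream of KIT were compared because KIT dominated the rule. Of 20 with enough UMIs, 15 were higher and 5 lower on the KIT side, with a median of 0.13 against 0.02 for all genes, and none of the 20 was 2-fold different. PLCG2, a phospholipase, was at 91.0 CPM against 53.4 CPM, a log2 ratio of 0.77 (0.29 to 1.27), and SOS1, an exchange factor for RAS, at 366 CPM against 234 CPM, or 0.64 (0.41 to 0.88). GAB1, an adaptor protein, was on the other side of 1.5-fold at 92.3 CPM against 143 CPM. LYN and SRC, kinases of the SRC family, also had lower levels on the KIT side, at 86.2 CPM against 118 CPM and 106 CPM against 138 CPM. KITLG, the gene of the KIT ligand, had 33 UMIs against 12, or 22.6 CPM against 12.8 CPM, a log2 ratio of 0.82 (-0.18 to 1.90). Below 100 UMIs and so outside the count, SOCS1 was at 43.8 CPM against 19.2 CPM, or 1.19 (0.41 to 2.03), and SHC1, an adaptor protein, at 18.5 CPM against 6.41 CPM, or 1.53 (0.22 to 3.09), from 27 UMIs against 6.

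In the TGF-beta and BMP list of 14 compared genes the median was 0.08. SMAD1, which carries BMP signals to the nucleus, was at 131 CPM against 78.0 CPM, a log2 ratio of 0.75 (0.35 to 1.16), and TGIF1, a repressor of SMAD targets, at 104 CPM against 158 CPM, or -0.61 (-0.94 to -0.27). No gene of this list reached 2-fold.

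Apart from the 2 basement membrane genes of the rule, the matrix genes differed little between the sides. Of 15 compared, none reached 2-fold and the median was -0.07. FN1, the gene of fibronectin, ranged from 2 to 106 UMIs per nucleus with a median of 29 on the KIT side, and from 3 to 176 with the same median on the GATA4 side, or 4000.1 CPM against 4157 CPM. COL4A1 was at 439.7 CPM against 438 CPM and COL4A2 at 368 CPM against 414 CPM. LAMB1 was at 122 CPM against 129 CPM. LAMC1, the laminin gamma chain, was the exception at 1.5-fold, at 55.4 CPM against 87.7 CPM. NID2, the other nidogen gene, had 14.4 CPM against 15.0 CPM, from 21 UMIs on the KIT side.

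Adhesion and chromatin genes held the remaining list genes past 2-fold. CDH2 (N-cadherin) was at 80.0 CPM against 188 CPM, a log2 ratio of -1.23 (-1.58 to -0.89), with a thinned detection of 15.1% (9.99% to 21.4%) against 31.8% (23.1% to 41.5%). With side and level taken from separate UMIs of the same nuclei, CDH2 was under 1.5-fold apart. CDH1 (E-cadherin) was at 635 CPM against 551 CPM. DNMT3B, a de novo DNA methyltransferase, was at 68.4 CPM against 171 CPM, or -1.32 (-1.70 to -0.95), and DNMT3A at 104 CPM against 159 CPM. UNC5C, a netrin receptor, was at 93.7 CPM against 182 CPM and EFNB2, a membrane-bound ephrin, at 36.9 CPM against 69.5 CPM. A list of clotting and protease inhibitor genes was read because VWF and A2M act in those processes. Of 7 compared, 1 passed 1.5-fold, and the median was -0.23. That gene was TFPI, an inhibitor of the tissue factor pathway, at 115 CPM against 72.7 CPM, or 0.66 (0.25 to 1.09). TIMP3, an inhibitor of matrix metalloproteases, was at 224 CPM against 305 CPM, and SERPINE2, an inhibitor of serine proteases, at 85.5 CPM against 119.7 CPM.

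The median was -0.22 for the 4 visceral endoderm genes compared, -0.04 for 10 of parietal endoderm, -0.06 for 14 of epiblast, -0.15 for 8 of trophectoderm, -0.09 for 7 of endocytosis and lipoproteins, 0.05 for 23 of polarity and junctions, and -0.06 for 9 of migration. Germ line genes (5 compared) had -0.02. Over all genes compared, 2.65% were at least 1.5-fold lower on the KIT side and 3.88% higher, and some genes are in more than 1 list. At least 1.5-fold lower were 3 of the 9 migration genes (CDH2, UNC5C and EFNB2), 3 of the 14 epiblast genes (DNMT3B, DNMT3A and DPPA2), 2 of the 10 parietal endoderm genes (RSPO3 and LAMC1), 2 of the 23 polarity genes (CDH2 and NECTIN2) and 1 of the 8 trophectoderm genes (FGFR2). In each of the migration, epiblast, parietal endoderm and polarity lists 1 of these was past 2-fold, CDH2 being the one in both the migration and polarity lists. At least 1.5-fold higher were 1 parietal endoderm gene, TFPI, and 2 polarity genes, TJP3 and PRKCZ. The retinoid and endothelial lists had 1 gene compared each, the blood and cumulus lists 2 each and the fibroblast list none. Genes of S phase (28 compared, median -0.05) and of G2 and M phase (34 compared, median -0.14) had no member past 1.5-fold.

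Outside the lists, the genes with the highest ratios and at least 50 CPM included ERBB4, CFAP54, CHRM3, ZAP70, IL1RAPL2, RBMS3, ASRGL1, RAB7B, IL1RAPL1, PDE4D, PHLDB2, FCHSD2, PCDHAC2 and SLC15A2. Several of them rested on 1 nucleus. A single member of 11263 UMIs held 88 of the 105 CHRM3 UMIs, 81 of the 102 ERBB4 UMIs and 86 of the 201 PDE4D UMIs. That nucleus entered the class with 3 UMIs of HNF4A and PDGFRA and 4 of KIT, VWF and A2M. Without it and the GATA4 side nucleus richest in CNTNAP2, PDE4D had a log2 ratio of 0.52 in place of 1.25, and CHRM3 and ERBB4 no longer reached 100 UMIs. When the gates were applied to thinned counts, IL1RAPL1 changed direction, to a log2 ratio of -0.60, IL1RAPL2 went from 1.46 to 0.12 and PDE4D to 0.02.

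Among the differences spread over more nuclei were those of FCHSD2, RAB7B, ASRGL1 and SLC15A2. FCHSD2, an adaptor of clathrin-mediated endocytosis, ranged from 0 to 36 UMIs with a median of 3 on the KIT side and from 0 to 33 with a median of 1 on the GATA4 side. Its level was 644 CPM against 276 CPM, a log2 ratio of 1.22 (1.02 to 1.43), and its thinned detection 71.1% (63.6% to 77.8%) against 41.1% (31.7% to 51.0%). RAB7B, a small GTPase of late endosomes, was at 166 CPM against 65.2 CPM, or 1.35 (0.94 to 1.78), and was detected in 43.4% against 16.8% of thinned nuclei. ASRGL1, an asparaginase, was at 122 CPM against 44.9 CPM, or 1.45 (0.96 to 1.97). SLC15A2, a peptide transporter, was at 131 CPM against 57.7 CPM, or 1.18 (0.74 to 1.64). ZAP70, a kinase best known from T cells, was at 62.2 CPM against 21.4 CPM, or 1.54 (0.83 to 2.32), in 57 of 166 and 17 of 107 nuclei. With the side called without KIT, ZAP70 had a log2 ratio of 0.76. For each of these 5 genes the ranges per nucleus overlapped between the sides.

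Several of these genes were also present in the trophectoderm-gated nuclei, some above the KIT side level and FCHSD2 below it. CFAP54, a gene of motile cilia, was at 103 CPM on the KIT side and 15.0 CPM on the GATA4 side, but at 1097 CPM in trophectoderm-gated nuclei, and it was detected in 42 of the 166 nuclei. ASRGL1 was at 201 CPM and SLC15A2 at 189 CPM in the trophectoderm-gated nuclei, above the KIT side, and FCHSD2 at 511 CPM. PECAM1, an adhesion gene of endothelium, was at 34.2 CPM on the KIT side, 8.55 CPM on the GATA4 side and 87.8 CPM in trophectoderm-gated nuclei. The 10 trophectoderm markers summed to 283 CPM on the KIT side and 300.4 CPM on the GATA4 side, with medians of 2 UMIs per nucleus on both and a highest value of 8 on both, against 2755 CPM in the trophectoderm-gated nuclei. TFAP2A and DLX3 were at 0 on the KIT side. The part of trophectoderm RNA in these ratios was not tested.

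The lowest ratios outside the lists were those of CHN2, CNTNAP2, TSPAN2, EPB41L4A, NRG1, PLCB1, ABTB2, PPFIBP1, TRPM6, RFC1, KIF5C, ABTB3, AMPH, FRMD5 and BTG3. EPB41L4A, of the band 4.1 family, was at 121 CPM against 330.3 CPM, a log2 ratio of -1.45 (-1.72 to -1.18), and had UMIs in 74 of 166 and 69 of 107 nuclei. RFC1, a subunit of the clamp loader of DNA replication, was at 249 CPM against 522 CPM, or -1.07 (-1.27 to -0.87), although its thinned detection was 56.6% against 65.4%, with overlapping intervals. TSPAN2, a tetraspanin, was at 26.7 CPM against 78.0 CPM, in 29 of 166 and 30 of 107 nuclei, and its log2 ratio went from -1.55 to -0.32 with the side called without KIT. PLCB1 went from -1.26 to -0.03 and KIF5C from -1.05 to -0.42 without COL18A1 in the call, and FRMD5 from -1.02 to -0.25 with gates on thinned counts. CHN2, a GTPase-activating protein for RAC, had 43 of its 144 GATA4 side UMIs in 1 nucleus. With the side called without KIT, the CHN2 log2 ratio went from -1.91 to -0.82. CNTNAP2, a neurexin family adhesion gene, had 96 of its 200 GATA4 side UMIs in 1 nucleus of 10163 UMIs, and its log2 ratio went from -1.57 to -0.64 without that nucleus and the member richest in CHRM3. It had UMIs in 35.5% of the nuclei on the KIT side and in 34.6% on the GATA4 side.

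**Figure D4:**
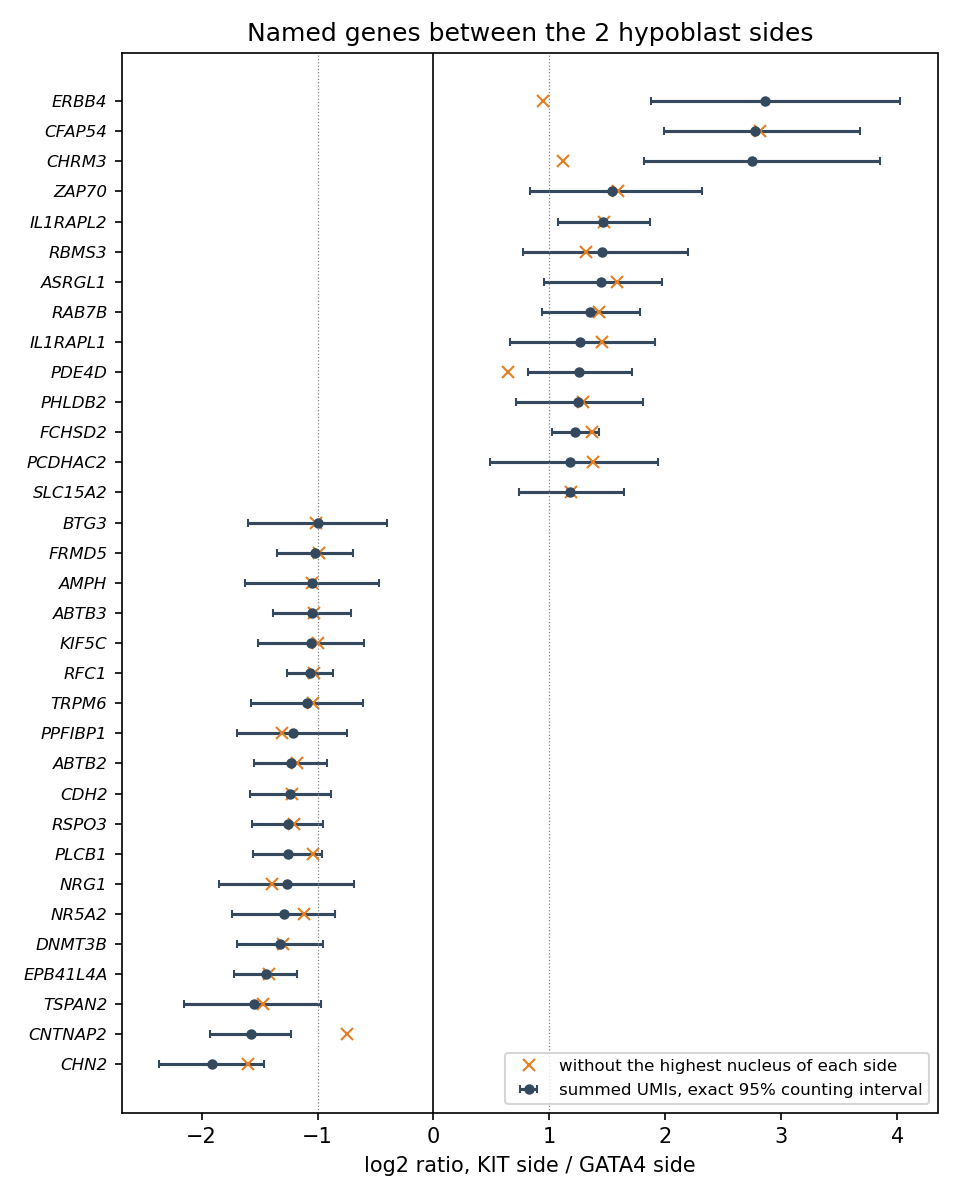
Log2 ratio of CPM, KIT side against GATA4 side, for genes with the highest and lowest ratios and for list genes past 2-fold, with exact 95% intervals for counting error and, as separate marks, the value without the nucleus richest in the gene on each side. PDE4D and CNTNAP2 move toward 0 in that second value, while FCHSD2, RAB7B and EPB41L4A do not.

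The same genes were read along the share of KIT, VWF and A2M among the 6 side genes, in 4 bins of 33, 65, 72 and 80 nuclei from the GATA4 end to the KIT end. FCHSD2 was at 236, 300.4, 468 and 801 CPM in these bins, RAB7B at 42.8, 76.4, 131 and 190.3 CPM, ASRGL1 at 21.4, 61.1, 105 and 151 CPM, and SLC15A2 at 46.4, 69.6, 104 and 154 CPM. The share is the score that defines the sides, and these genes were picked for their ratio between the sides in the same nuclei, so an order along the bins follows in part from that choice and supports nothing. In the opposite direction, EPB41L4A was at 439 CPM, 269.9 CPM, 143 CPM and 98.7 CPM, RSPO3 at 328, 195, 129.7 and 84.6 CPM, and CDH2 at 228, 144, 107 and 60.6 CPM. GATA6 was at 949, 1112, 1016 and 870 CPM. NR5A2 was at 121 CPM in the first bin, 62.8 and 65.6 CPM in the middle bins and 24.0 CPM in the last. Nuclei with under 5 UMIs of the 6 side genes are in no bin. The bins below the middle held 34 and 37 NR5A2 UMIs, and GATA4 side nuclei left out of the bins held others. The bins had median depths of 7693, 9084, 7788.5 and 8607.5 UMIs.

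**Figure D5:**
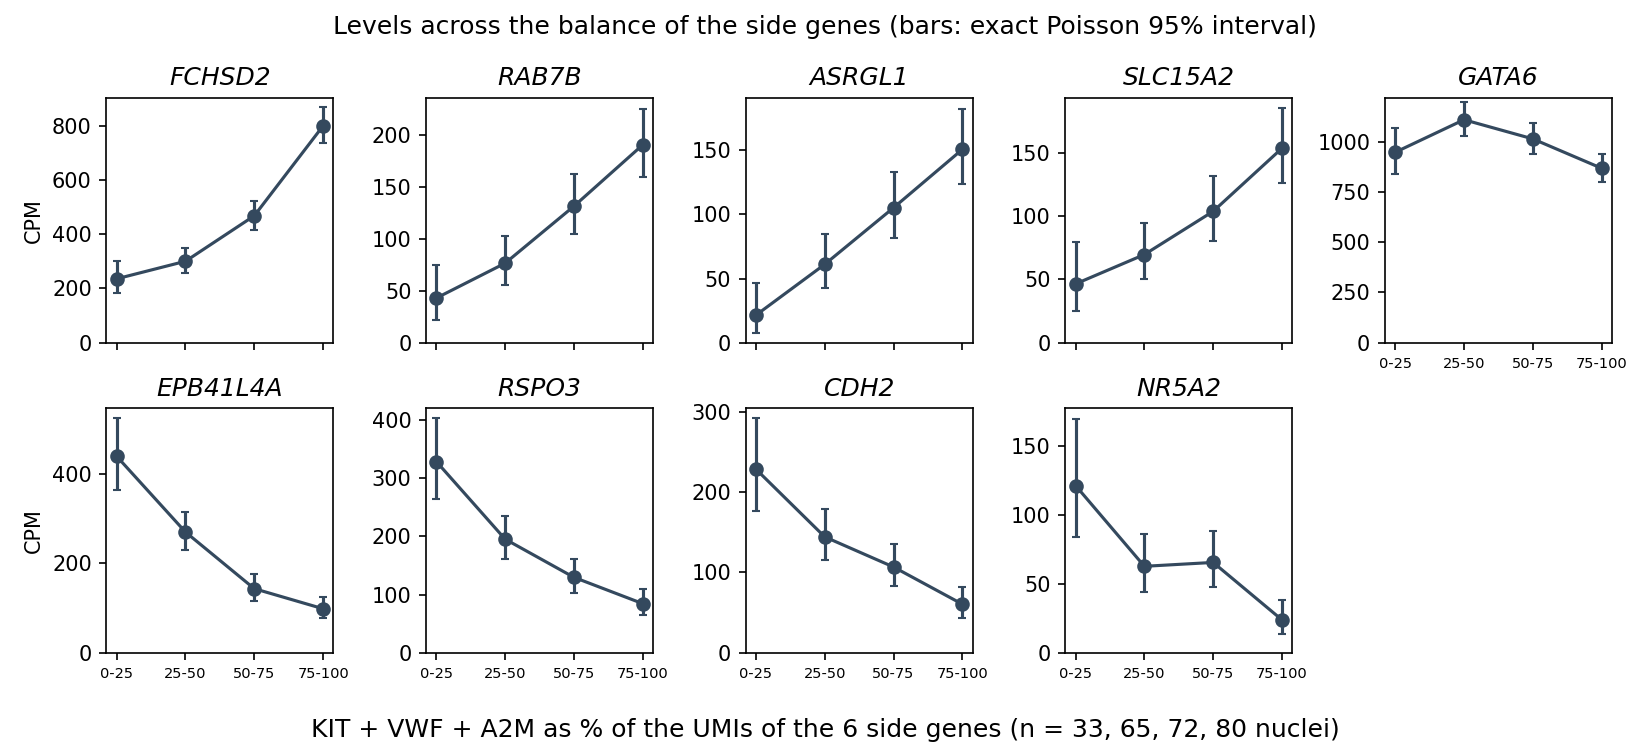
CPM of selected genes in 4 bins of hypoblast nuclei ordered by the share of KIT, VWF and A2M among the UMIs of the 6 side genes, on linear axes that start at 0, with exact 95% intervals for counting error. FCHSD2 goes from 236 to 801 CPM across the bins and RSPO3 from 328 to 84.6 CPM, while GATA6 lies between 870 and 1112 CPM. FCHSD2 and RSPO3 were chosen for their difference between the sides that this share defines. Nuclei with under 5 UMIs of the 6 side genes are left out.

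Over 178 thinned nuclei and 2599 genes, the genes whose counts followed that share most closely included FCHSD2, with Spearman's rho of 0.37, RAB7B with 0.30, TRIM2 with 0.30 and TNS1 with 0.27, followed by EGFR, CEP164, SUPT5H, CHD9 and UTRN. Those with the most negative values included TMEM132D at -0.37, KIF13B at -0.34 and APOA1 at -0.29, followed by ERC2, GPAT3, DLGAP1, CEP85L, GLI3 and CLIP1. EGFR is the receptor for epidermal growth factor, and APOA1 the main apolipoprotein of high-density lipoprotein. These are weak correlations over nuclei of 1 library, chosen as the extremes of many, and are given as a description.

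The ratios were also read with the side called without KIT or without NID1, which changed the classes to 55 and 210 nuclei and to 242 and 31. FCHSD2 had a log2 ratio of 0.51 without KIT in the call and 1.93 without NID1, RAB7B 0.73 and 2.16, and ASRGL1 0.67 and 2.43. RSPO3 was at -1.35 and -1.16, NR5A2 at -1.40 and -1.52, EPB41L4A at -1.08 and -2.07, and CDH2 at -2.44 and -1.45. These 7 are a chosen few, and the 3 higher ones were less than 2-fold apart once KIT left the call. Other named genes also moved: without KIT in the call ABTB2 went from -1.23 to -0.47 and CFAP54 from 2.78 to 1.08, and without NID1 in it NRG1 went from -1.26 to -0.27. With the side and the level taken from separate UMIs, CDH2 went from -1.23 to -0.34.

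Against the other 420 nuclei, 8152 genes were compared, of which 255 (3.13%) were at least 2-fold higher on the KIT side and 670 (8.22%) at least 2-fold lower. At 1.5-fold the counts were 1020 (12.5%) and 1193 (14.6%), around a median log2 ratio of 0.08. Of those nuclei 216 are trophectoderm-gated, so much of what follows sets hypoblast beside trophectoderm and is not about the difference between the sides. The GATA4 side value is given for some genes only. The list counts below are to be read beside the shares over all genes given here, and some genes are in more than 1 list.

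STAT3, a transcription factor that carries signals of LIF and related cytokines, was among the listed genes with high ratios, the genes of the rule aside. It ranged from 0 to 20 UMIs per KIT side nucleus with a median of 4 and stood at 544 CPM, against 178 CPM in the other nuclei, a log2 ratio of 1.61 (1.47 to 1.76), and 22.5 CPM in the trophectoderm-gated nuclei. The GATA4 side was at 463 CPM. SOCS1, a feedback inhibitor of that pathway, was at 43.8 CPM against 15.3 CPM, and at 19.2 CPM on the GATA4 side. FYN, a kinase of the SRC family, was at 65.7 CPM against 23.1 CPM. These 3 were the genes of the KIT pathway list at least 2-fold higher, while 4 of the 25 compared were at least 2-fold lower. Among the lower ones INPP5D had 2 UMIs against 344, and GAB2 was at 66.3 CPM against 375.5 CPM.

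Of 12 endoderm transcription factors compared, 3 were at least 2-fold higher and 1 lower than in the other nuclei, with a median of 0.10. Among the higher ones, OTX2, a homeobox factor, had a log2 ratio of 1.21 at 103 CPM against 44.6 CPM, and RUNX1 one of 1.18. The lower one was ELF3, an epithelial ETS factor, with 9 UMIs. SPIC, an ETS factor listed with blood genes, was at 295 CPM against 133 CPM, or 1.15 (0.97 to 1.34). GATA6 was at 949 CPM against 665 CPM, with 556 CPM in the trophectoderm-gated nuclei.

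FGF signalling genes had a median of 0.43, with 4 of 11 at least 2-fold higher and 1 lower. Over all genes compared the shares were 3.13% higher and 8.22% lower. SPRY2 was at 129 CPM against 45.8 CPM, SPRY4 at 34.9 CPM against 16.5 CPM, FGFR4 at 102 CPM against 41.8 CPM and FGF1 at 45.1 CPM against 21.9 CPM. SPRED1, another inhibitor of RAS signalling, was the lower one, at 118 CPM against 298 CPM. SMAD6, an inhibitor of BMP signalling, was at 177 CPM against 76.5 CPM and 163 CPM on the GATA4 side.

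In the basement membrane list, 4 of 24 genes were at least 2-fold higher and 4 at least 2-fold lower, with a median of 0.02. FN1 was at 4000.1 CPM against 1610.2 CPM, COL4A1 at 439.7 CPM against 180.3 CPM, COL4A2 at 368 CPM against 131 CPM and ITGA2, an integrin subunit that binds collagen, at 106 CPM against 37.3 CPM. LAMA1, the laminin alpha chain typical of early basement membrane, was at 12.99 CPM against 68.2 CPM, and DAG1, the gene of the laminin receptor dystroglycan, at 34.2 CPM against 184 CPM. Collagen IV and fibronectin transcripts were thus on the hypoblast side of the comparison and LAMA1 on the trophectoderm side, where it reached 111 CPM.

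Outside the lists, the highest ratios against the other nuclei were those of CHRM3, ERBB4, CAPN8, SYNPO2, CRH, FOXR1, RBFOX1, DGKB, CUX2, DAB1, GRM8, ADAMTS3, SHISA5, FAS and PDE4D. CHRM3 and ERBB4 again came from the single nucleus and turned below 0 under 2 alternatives. PDE4D had a part of its UMIs in that nucleus. With gates on thinned counts, PDE4D went from a log2 ratio of 1.43 to 0.07, DGKB from 1.58 to 0.56 and RBFOX1 from 1.62 to 0.73. CAPN8, a calpain protease, was at 115 CPM against 32.8 CPM and at 3.09 CPM in trophectoderm-gated nuclei. SYNPO2, an actin-binding protein, was at 267 CPM against 85.0 CPM, CRH, the gene of corticotropin-releasing hormone, at 62.9 CPM against 20.3 CPM, and ADAMTS3, a procollagen protease, at 256 CPM against 91.1 CPM. On the GATA4 side these 4 genes were at 108, 214, 46.0 and 270.4 CPM, so they marked both sides. GRM8, a glutamate receptor gene, was at 308 CPM on the KIT side, 156 CPM on the GATA4 side and 21.6 CPM in trophectoderm-gated nuclei.

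The lowest ratios belonged to SLC34A2, ANKH, PLS1, GCNT1, MACC1, FAM83B, CRYBG2, NGEF, ARHGAP18, GDPD2, CEMIP, HKDC1, SCIN, GIPC2 and C23H6orf132. SLC34A2, a phosphate transporter, had 1 UMI against 1233, and ANKH, a pyrophosphate transport protein, 4 against 802. PLS1, a plastin of microvilli, was at 12.3 CPM against 817 CPM. GIPC2 and C23H6orf132 had 0 UMIs against 226 and 223. With these counts set to the floor of 3 UMIs, the ratios were 26.0-fold and 25.7-fold lower, which are not bounds. Of 22 trophectoderm genes compared, 12 were at least 2-fold lower, 21 were lower, and the median was -1.48. KRT8 was at 36.9 CPM against 371 CPM, KRT18 at 109 CPM against 718 CPM, and PTGS2, a prostaglandin synthase, at 26.0 CPM against 287 CPM. Of 34 genes of polarity and junctions, 10 were at least 2-fold lower and none higher, where 8.22% of all genes compared were lower. EZR (ezrin) was at 155 CPM against 782 CPM and PATJ at 176 CPM against 538 CPM.

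The class was not sharply set off from the epiblast-gated nuclei. Those 94 nuclei had 580.2 CPM of KIT, 597 CPM of HNF4A, 312 CPM of PDGFRA, 419 CPM of STAT3 and 862 CPM of GATA6, next to 123 CPM of NANOG. Of the 87 nuclei that failed the hypoblast gate only through NANOG and PRDM14, KIT, VWF and A2M were ahead in 42 and GATA4, NID1 and COL18A1 in 39. In the KIT side nuclei the 9 epiblast markers summed to 177 CPM, with a median of 1 UMI and at most 8 in a nucleus, against 212 CPM on the GATA4 side and 573 CPM in the epiblast-gated nuclei. NANOG and PRDM14 are low in the class by the rule.

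Markers of other cell types were read because VWF and KIT are also genes of endothelium, blood and germ cells. The 12 endothelial markers summed to 90.3 CPM on the KIT side (75.5 to 107), 40.6 CPM on the GATA4 side (28.7 to 55.8) and 120 CPM in trophectoderm-gated nuclei. The median KIT side nucleus had 0 endothelial UMIs and the highest had 27; EMCN was at 0, and CDH5, which defines endothelium, was at 4.79 CPM. The 6 blood and macrophage markers summed to 17.8 CPM on the KIT side and 17.1 CPM on the GATA4 side, with SPI1 and C1QA at 0 on both. The 4 germ line markers summed to 15.7 CPM and 15.0 CPM, with NANOS3 at 0. Cumulus and granulosa markers summed to 75.2 CPM and 83.4 CPM, and fibroblast markers to 12.99 CPM and 4.28 CPM. PECAM1 gave 50 of the 132 endothelial UMIs. The part of these markers in the differences between the sides was not tested.

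The same rule applied to the 3L blastoid library, whose 288 kept nuclei had a median of 13048 UMIs, gave 10 hypoblast nuclei, with 2 on the KIT side and 7 on the GATA4 side. The KIT side share was 0.694% of the kept nuclei (0.0842% to 2.49%), against 24.0% in the blastocyst library. Over the kept nuclei KIT was at 23.0 CPM in the blastoid library and 405 CPM in the blastocyst library, A2M at 3.71 CPM and 75.4 CPM, and VWF at 4.17 CPM and 44.0 CPM. COL18A1 was the nearest of the side genes, at 64.2 CPM and 87.6 CPM. With 1 library of each kind these shares describe the nuclei kept at this depth and carry no replicate check.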

How the data were processed

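The files hold raw UMI counts per gene and barcode, deposited by the authors; Cell Ranger 7.2.0 made them per the file headers, whereas the submitters' processing notes name Cell Ranger 7.1.0 and Seurat 4.3.0. The genome build is not given in the sources used here. Of 35643 features, 17895 had a symbol used by 1 feature, and these could be named. UMIs were summed over each class and divided by the class total. A CPM ratio was computed for genes with at least 100 UMIs in both sums together, with counts under 3 set to 3 and an exact conditional 95% interval. Named genes were those of the rule, those of 22 gene lists, and the 15 highest and 15 lowest ratios among genes with at least 50 CPM in the higher sum. Of list genes, those past a stated fold and examples near equal are named. Some genes that this rule names are not reported here. The members and lists were chosen with earlier results of these data known. PECAM1, SOX17, KITLG, SOCS1 and SHC1, below 100 UMIs against the GATA4 side, and the 5 genes called widely spread were chosen for the text after their values were seen. Thinning drew 4000 UMIs per nucleus without replacement. Clustering used 2000 variable genes, 30 principal components and 15 neighbours. No doublets were removed; leaving out the 6 highest Scrublet scores was an alternative. Scripts used numpy 2.4.6, scipy 1.17.1, pandas 2.3.3 and scanpy 1.11.5 with leidenalg 0.10.2, and were tested on simulated data. Of 24 alternatives, 1 was chosen after seeing the data.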

Additional observations from a re-analysis of the deposited data

How the results depend on the processing

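No paired analysis was possible because each group had 1 library. Where fewer or more nuclei, genes or UMIs enter by construction, counts shift with them; for every other value here the cause was not tested. The number of KIT side nuclei, 166 by the rule, was 135 with HNF4A and PDGFRA at 4 or more, 110 with the exclusion genes at 0, 132 with a margin of at least 3 UMIs, 124 with at least 6000 UMIs, 88 with at least 8000 and 78 below 8000. It was 195 when the side was called without COL18A1, 242 without NID1 and 55 without KIT. Gates on thinned counts gave 161 nuclei, of which 122 were among the 166. Genes 2-fold higher than on the GATA4 side, 33 by the rule, numbered 14 with at least 200 UMIs per gene, 90 with 50, 12 with gates on thinned counts, 197 called without NID1, 15 with side and level from separate UMIs and 16 below 8000 UMIs. As shares of the genes compared these were 0.487%, 1.21%, 0.228%, 3.93%, 0.552% of 2717 and 0.819% of 1954, against 0.657% of 5021 by the rule. Genes 2-fold lower, 26 by the rule, numbered 15 with 200 UMIs, 71 with 50, 42 called without KIT, 68 without NID1 and 9 with separate UMIs (0.522%, 0.953%, 0.853%, 1.36% and 0.331%, against 0.518%). Against the other nuclei, the 255 higher genes became 158 with 200 UMIs, 426 with 50, 127 with exclusion genes at 0, 146 with the margin, 151 with separate UMIs and 119 below 8000 UMIs, and the 670 lower genes became 286 below 8000 UMIs. The higher shares were 2.79%, 4.05%, 1.51%, 1.75%, 2.64% and 3.205% against 3.13%, and the lower one 7.70% against 8.22%. In log2 ratio against the other nuclei, CHRM3 reversed to -2.79 with HNF4A and PDGFRA at 4 or more and to -1.83 with gates on thinned counts, ERBB4 to -1.24 and -0.90, and PRDM14, a gene of the rule, to 0.61 with thinned gates. Called without KIT, NID1 went from 0.68 to -0.42 (-0.82 to -0.04) and COL18A1 from 0.64 to -0.59 (-1.43 to 0.14). IL1RAPL1 reversed against the GATA4 side to -0.60 with thinned gates. The alternative without the nuclei richest in CHRM3 and CNTNAP2, chosen after seeing the data, left 165 nuclei, 32 genes higher and 24 lower than on the GATA4 side. Of the gene ratios against the GATA4 side, 5106 values over all alternatives stayed within counting error and 311 moved beyond it, reversals of genes at least 2-fold apart by the rule not counted; against the other nuclei these were 7610 and 416. Few UMIs limit several genes: VWF had 116, COL18A1 119, GATA4 34 and SOX17 8 on the KIT side.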
